A study of Mus musculus with 6 samples.

Results

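Genes for vesicle sorting, secretion and fusion were examined for binding of Ikaros, a DNA-binding zinc finger protein and the product of Ikzf1, in mouse natural killer (NK) cells. The members were the protein-coding genes that the authors named at a peak and whose symbols start with Vps, Snx, Chmp, Cop, Sec, Ap, Tmed, Exoc, Trappc, Cog, Golg, Stx or Vamp in the forms listed with the processing steps; Snx29 was left out. The rule took 23 genes at 24 regions, out of 2145 protein-coding gene names and 2526 regions in all. The series held chromatin immunoprecipitation with sequencing (ChIP-seq) of 3 Ikzf1 KO samples, with a conditional deletion in NKp46-expressing cells, and 3 WT samples, all from splenic NK cells grown in IL-15 at 50 ng/ml, fixed in 2% formaldehyde and precipitated with an antibody to Ikaros. KO samples were not analysed here, so every value below is from WT cells, and no value separates signal that depends on Ikaros from signal that does not. The labels do not say whether WT replicates came from separate mice or cultures.

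Vesicle traffic moves proteins and membrane between the endoplasmic reticulum, Golgi, endosomes, lysosomes and cell surface. Sorting complexes pick cargo, coats bend the membrane, tethers hold the vesicle at its target, and SNARE proteins of the Stx and Vamp families drive fusion. NK cells kill by releasing lytic granules, which are secretory lysosomes, and this release depends on sorting, tethering and fusion factors such as Stx11 and Unc13d.

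Each WT library had a list of peaks called by the authors. The members had 6 of 685 peaks in replicate 1, 18 of 2084 in replicate 2 and 11 of 1342 in replicate 3. Peaks from different lists that shared at least 1 base were joined into a region. Depth is unknown because the lists give no read counts, so a gene with no peak is not shown to be unbound.

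A member was about as likely to carry a peak as any other protein-coding gene. The name rule takes 230 protein-coding genes of the RefSeq gene table, of which 23 (10.0%, 95% Clopper-Pearson interval 6.45 to 14.6) had a peak in at least 1 list, and all 23 names matched the table. The share over all 21896 protein-coding genes was 9.36%. A region in 2 or more lists was found for 7 members (3.04%), against 4.36% of all genes, and a region in all 3 lists for 4 members (1.74%), against 1.99%. Intervals here and below cover counting error over genes or regions only.

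The 4 genes with a region in all lists were Chmp5, Snx18, Trappc9 and Vamp4, and the 3 with a region in exactly 2 lists were Exoc2, Stx12 and Vamp2. By the authors' gene names these were 2 sorting genes, 2 tethers and 3 SNAREs, with no coat or adaptor gene. Under the RefSeq assignment 2 further members had a region in all lists, the adaptor gene Ap3m2 and the sorting nexin Snx25. The other 16 genes had peaks in 1 list only. Of the 24 member regions, 7 were in 2 or more lists (29.2%, interval 12.6 to 51.1), against 42.9% of all regions, and 4 were in all lists (16.7%, interval 4.74 to 37.4), against 19.8%. The other 17 (70.8%) were in 1 list, against 57.1% of all regions. The whole-series shares fall inside these intervals. The −log10 of q, the authors' adjusted p-value for a peak, was then required to reach 5. The order was the other way, with 6 of 8 member regions in 2 or more lists (75.0%), against 48.7% of all regions so kept. That share rests on 8 regions and had no interval computed, and its difference from the whole series was not tested.

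**Figure D1:**
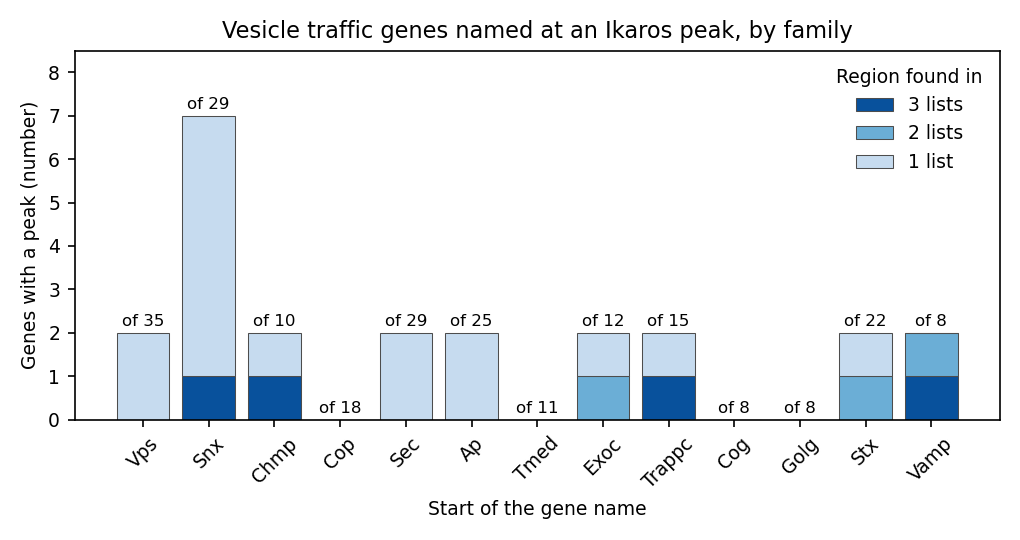
Number of genes with a peak (vertical axis), by the start of the gene name, with shades for the number of WT lists that hold the region and the number of genes of that name in the table above each bar. The Snx genes have 7 of 29 with a peak, and the Cop, Tmed, Cog and Golg genes have 0 of 18, 11, 8 and 8.

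The counts by family below stand against 9.36% of all protein-coding genes with a peak in any list. By family, sorting nexins (Snx) had 7 of 29 genes with a peak (24.1%), ESCRT-III genes (Chmp) 2 of 10 and Vps genes 2 of 35. Exocyst genes (Exoc) had 2 of 12 and TRAPP genes (Trappc) 2 of 15. Golgi tethers of the COG complex (Cog) and Golg genes, which include golgins, had 0 of 8 each. Syntaxin genes and their binding proteins (Stx) had 2 of 22 (9.09%) and Vamp genes 2 of 8 (25.0%). Adaptor genes (Ap) had 2 of 25, and Sec genes, which include COPII coat subunits, 2 of 29. Cop genes had 0 of 18, of which 10 are COP9 signalosome genes or Coprs and not coat subunits, and Tmed cargo receptors had 0 of 11. The families were also grouped by name alone, not by the known role of each gene. A peak was found at 11 of 74 Vps, Snx and Chmp genes (14.9%) and 4 of 83 Cop, Sec, Ap and Tmed genes (4.82%). For Exoc, Trappc, Cog and Golg genes it was 4 of 43 (9.30%), and for Stx and Vamp genes 4 of 30 (13.3%). These groups are not pure roles: the 83 include genes that are not coat subunits, such as Sec11a, and the 43 include Golga7, which acts in palmitoylation. No test of a difference between families was made.

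Promoters of 5 of the 7 repeated genes follow, each with the peak region lying on it; every peak of the other two, Trappc9 and Vamp2, also crossed an end of its gene. Each runs 5′ to 3′ along the gene's strand, from 250 bases before the gene's start through the first 50 bases of the gene, and comes from RefSeq on GRCm38.p6, the build also called mm10. Capitals mark GGGAA, the core that Ikaros zinc fingers are known to bind, or its reverse complement TTCCC.
Chmp5 promoter, chr4:40948303-40948602, plus strand: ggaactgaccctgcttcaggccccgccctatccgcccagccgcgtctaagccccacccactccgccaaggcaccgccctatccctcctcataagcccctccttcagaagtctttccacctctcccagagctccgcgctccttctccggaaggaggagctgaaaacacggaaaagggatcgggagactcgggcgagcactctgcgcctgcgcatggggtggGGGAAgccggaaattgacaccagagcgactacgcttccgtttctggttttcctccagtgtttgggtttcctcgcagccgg
Snx18 promoter, chr13:113618515-113618814, minus strand: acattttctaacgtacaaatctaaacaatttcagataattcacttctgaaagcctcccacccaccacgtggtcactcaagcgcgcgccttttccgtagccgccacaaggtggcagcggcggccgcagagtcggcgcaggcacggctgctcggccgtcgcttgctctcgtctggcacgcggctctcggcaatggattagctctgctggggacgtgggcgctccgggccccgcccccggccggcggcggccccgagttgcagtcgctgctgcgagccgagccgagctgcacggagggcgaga
Vamp4 downstream promoter, chr1:162570578-162570877, plus strand: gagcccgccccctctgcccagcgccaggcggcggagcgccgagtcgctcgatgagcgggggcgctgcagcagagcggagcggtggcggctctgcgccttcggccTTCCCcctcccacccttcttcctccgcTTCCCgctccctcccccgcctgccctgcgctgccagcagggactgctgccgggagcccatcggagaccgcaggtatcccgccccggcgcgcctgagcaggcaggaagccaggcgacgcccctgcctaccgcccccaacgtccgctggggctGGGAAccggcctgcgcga
Exoc2 promoter, chr13:30973998-30974297, minus strand: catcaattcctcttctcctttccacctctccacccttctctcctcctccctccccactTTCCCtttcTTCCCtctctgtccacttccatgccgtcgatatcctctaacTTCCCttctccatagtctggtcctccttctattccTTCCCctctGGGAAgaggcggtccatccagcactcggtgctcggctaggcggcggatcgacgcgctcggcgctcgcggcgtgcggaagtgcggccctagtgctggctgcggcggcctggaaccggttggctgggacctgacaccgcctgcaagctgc
Stx12 promoter, chr4:132884409-132884708, minus strand: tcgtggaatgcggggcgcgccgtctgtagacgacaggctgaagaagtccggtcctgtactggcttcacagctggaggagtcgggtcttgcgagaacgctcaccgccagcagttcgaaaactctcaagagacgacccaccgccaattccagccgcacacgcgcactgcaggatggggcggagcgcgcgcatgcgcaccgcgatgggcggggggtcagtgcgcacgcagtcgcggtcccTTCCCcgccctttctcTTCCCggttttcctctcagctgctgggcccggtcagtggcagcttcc

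These windows differ in how many copies of the core they hold. Exoc2 has 5 copies, Vamp4 downstream 3, Stx12 2, Chmp5 1 and Snx18 0, and in these 5 windows the copies lie inside the bases covered by the peak region. A region joins the peaks of all lists that hold it. The Exoc2 copy at -192 from the gene's start and the Vamp4 downstream copy at 32 lie in the peak of replicate 3 only. The upstream Vamp4 window, which is not printed, holds 1 copy, outside the region. At least 5 copies occur in 0.527% of 21262 promoter windows of protein-coding genes, and 37.0% hold 0 copies. Those with 1, 2 and 3 copies make up 35.3%, 18.5% and 6.78%. Exoc2 is the highest of the 11 member windows that their regions overlap, and these shares were not computed for overlapped windows alone. In Chmp5 the core starts at -30 from the gene's start, next to a CCGGAA, the core of sites bound by ETS factors, at -24.

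Chmp5, which encodes an ESCRT-III-associated protein that acts in forming multivesicular bodies, had the highest-ranked peaks of the members (ENSMUSG00000028419). Its region lay on chr4:40948275-40948633. Fold enrichment, the authors' linear ratio of signal over background for a peak, was 8.48 in replicate 1, 11.4 in replicate 2 and 13.0 in replicate 3. Those values ranked 44 of 685, 57 of 2084 and 37 of 1342 from the top. As percentiles within each list, where 100 is the strongest peak, they were 93.7, 97.3 and 97.3. The 3 peaks shared 330 of the 359 bp of the region, and their starts differed by at most 14 bp. The region also covers the start of Bag1, a co-chaperone gene on the other strand that starts 259 bp away, and the authors' rows name both genes, so the peak cannot be given to 1 of them.

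Snx18, a sorting nexin with an SH3 domain that remodels membrane in endocytosis and autophagy, had a region over its start on chr13:113618462-113618768 (ENSMUSG00000042364). Fold enrichments were 6.51, 6.35 and 7.53 in replicates 1, 2 and 3, at percentiles of 84.1, 84.5 and 90.1. No list placed it below percentile 84.1. A further Snx18 region, on chr13:113579904-113580201, lay 12.0 kb beyond the other end of the gene and was in replicate 2 only, with a fold enrichment of 3.98 at percentile 20.8.

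Trappc9, a subunit of the TRAPP II complex that tethers vesicles at the Golgi, had a region across 1 end of the gene on chr15:73060999-73061391 (ENSMUSG00000047921). Its fold enrichments were 6.77, 10.8 and 5.92 in replicates 1, 2 and 3, at percentiles of 86.1, 97.1 and 72.6. Of the 4 regions in all lists, it had the widest range of percentiles, and its value in replicate 2 ranked 62 of 2084.

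Vamp4, a SNARE of the trans-Golgi network and endosomes, had a region on chr1:162570475-162570869 (ENSMUSG00000026696). Fold enrichments were 5.71, 5.29 and 6.08 in replicates 1, 2 and 3, at percentiles of 70.5, 67.0 and 75.6. RefSeq gives the gene starts that lie 313 bp apart. The region covers 90 of the 300 bases of the upstream window and 292 of those of the downstream one. Peaks of replicates 1 and 3 crossed the upstream start, and that of replicate 2 began 3 bp downstream of it.

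Exoc2, the exocyst subunit also called Sec5, which helps hold secretory vesicles at the plasma membrane, had a region on chr13:30973957-30974268 (ENSMUSG00000021357). Fold enrichments were 5.69 and 5.99 in replicates 2 and 3, at percentiles of 75.8 and 74.2, with no peak in replicate 1. The authors' rows also name Gm5447 there.

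Stx12, an endosomal syntaxin, had a region on chr4:132884389-132884905 (ENSMUSG00000028879). Fold enrichments were 4.33 and 4.66 in replicates 1 and 2, at percentiles of 19.4 and 47.3, with no peak in replicate 3. It was the weakest of the 7 repeated regions, below the median of both lists that hold it.

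Vamp2, the vesicle SNARE of regulated exocytosis known from synapses, had a region on chr11:69088319-69088574 (ENSMUSG00000020894). Fold enrichments were 5.84 and 5.65 in replicates 1 and 3, at percentiles of 72.7 and 67.0. Replicate 2, the longest list, held no peak there.

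**Figure D2:**
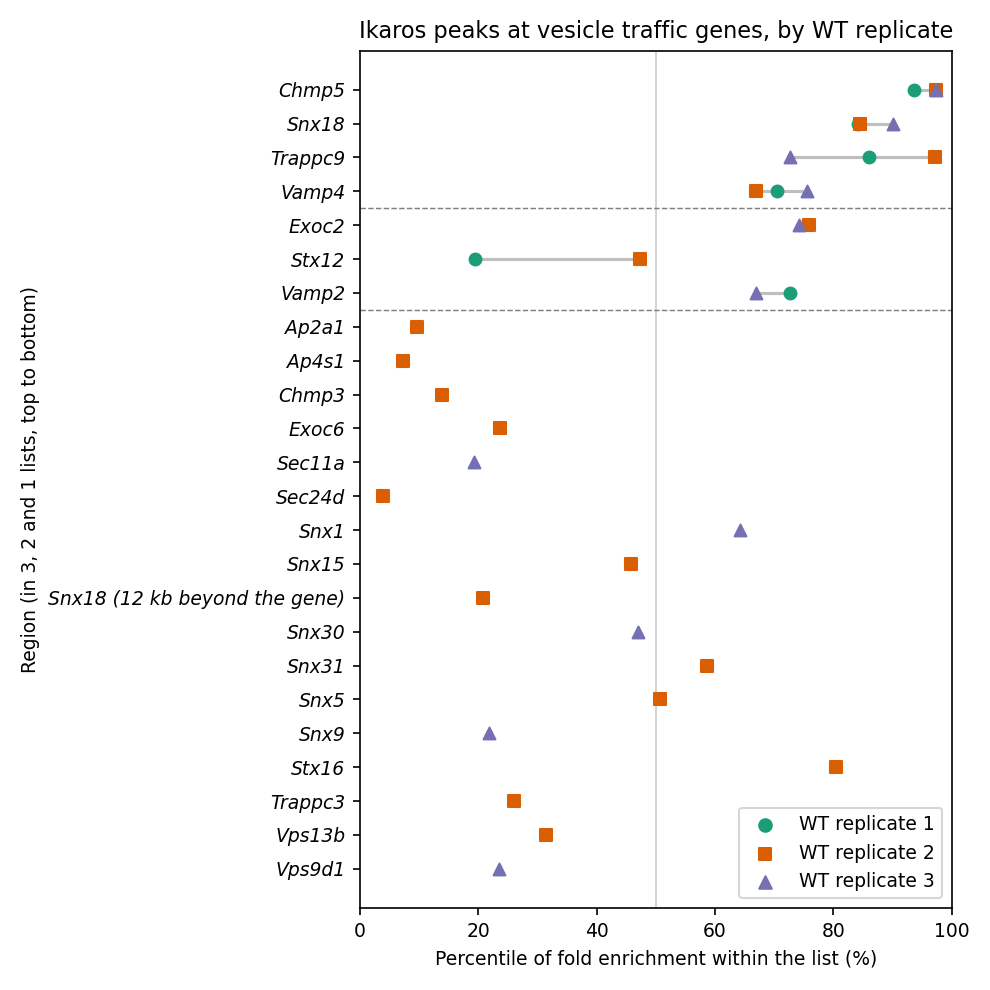
Percentile of fold enrichment within each WT list (horizontal axis, %) for the 24 member regions, with 1 marker per list that holds the region. Regions in 3 lists sit between 67.0 and 97.3, and regions in 1 list between 3.93 and 80.5.

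Single-list regions were mostly weak peaks of the longest list. Of the 17, 12 came from replicate 2, 5 from replicate 3 and 0 from replicate 1. Single-list regions outside the members came from replicates 2, 3 and 1 in 72.4%, 23.1% and 4.56% of cases. Their percentiles ran from 3.93 to 80.5 with a median of 23.7, against 37.0 for all single-list regions. Without replicate 2 the members had 12 regions in place of 24. Outside the members, 1031 of 2502 regions were in replicate 2 only and would be lost in the same way. Regions in all lists had a median percentile of 85.3 over 12 peaks, against 68.2 for all such regions.

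The 3 strongest single-list peaks belonged to Stx16, Snx1 and Snx31. Stx16, a trans-Golgi syntaxin, had a fold enrichment of 5.97 in replicate 2, at percentile 80.5, on chr2:174076152-174076367 across its start. Snx1, a membrane-bending sorting nexin that works with retromer, had 5.51 in replicate 3, at percentile 64.2, on chr9:66124714-66124914 across its start. Snx31, a sorting nexin with a FERM-like domain, had 5.00 in replicate 2, at percentile 58.6, on chr15:36562799-36563068, which lies 2.67 kb beyond the RefSeq span of the gene.

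The other single-list genes with Snx, Chmp or Vps names were Snx5, a partner of Snx1, Snx9, an endocytic nexin of the Snx18 type, Snx15, Snx30, the ESCRT-III subunit Chmp3, the lipid transfer gene Vps13b and Vps9d1. Those with Sec or Ap names were Sec24d, a cargo-binding COPII subunit, Sec11a, a catalytic subunit of signal peptidase, Ap2a1 of the endocytic adaptor AP-2 and Ap4s1 of the trans-Golgi adaptor AP-4. The tethers were Exoc6, an exocyst subunit, and Trappc3, a core TRAPP subunit. Their percentiles ran from 3.93 for Sec24d to 50.7 for Snx5. The Sec11a peak lay 10.2 kb outside the RefSeq span of Sec11a and over the start of Nmb, which the authors' rows also name.

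Within each list, the median of the member peaks ranked near or above the middle. Single peaks varied, and 1 of 6, 10 of 18 and 4 of 11 were under percentile 50 in replicates 1, 2 and 3. The median percentile of member peaks was 78.4 over 6 peaks in replicate 1, 46.5 over 18 in replicate 2 and 67.0 over 11 in replicate 3 (mean 64.0, SD 16.1, n = 3 lists). All peaks of a list have a median of 50.0 or 50.1 by construction. A −log10 q of 5 or more was reached by 5 of 6, 6 of 18 and 7 of 11 member peaks in replicates 1, 2 and 3. Over all peaks the shares were 40.1% in replicate 1, 36.4% in replicate 2 and 43.4% in replicate 3. Repeated regions gave 6 of the 6, 6 of the 18 and 6 of the 11 member peaks, so the medians compare different mixes of members.

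All 7 repeated member regions lay at an end of a gene. Their midpoints were 0.0165 to 0.189 kb from the nearest end of a protein-coding gene, so 7 of 7 were within 1 kb (100%, interval 59.0 to 100). Over all regions in 2 or more lists that share was 51.3%. The rule selects regions that the authors tied to a protein-coding gene, and over all such regions in 2 or more lists the share was 57.8%. All 7 were also at an authors' distance of 0 bp from the gene, and over regions like that in 2 or more lists it was 62.5%, inside the interval. Among single-list member regions 9 of 17 were within 1 kb of a gene end, and among all member regions 16 of 24 (66.7%, interval 44.7 to 84.4), against 48.5% of all regions and 54.9% of those named for a protein-coding gene.

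**Figure D3:**
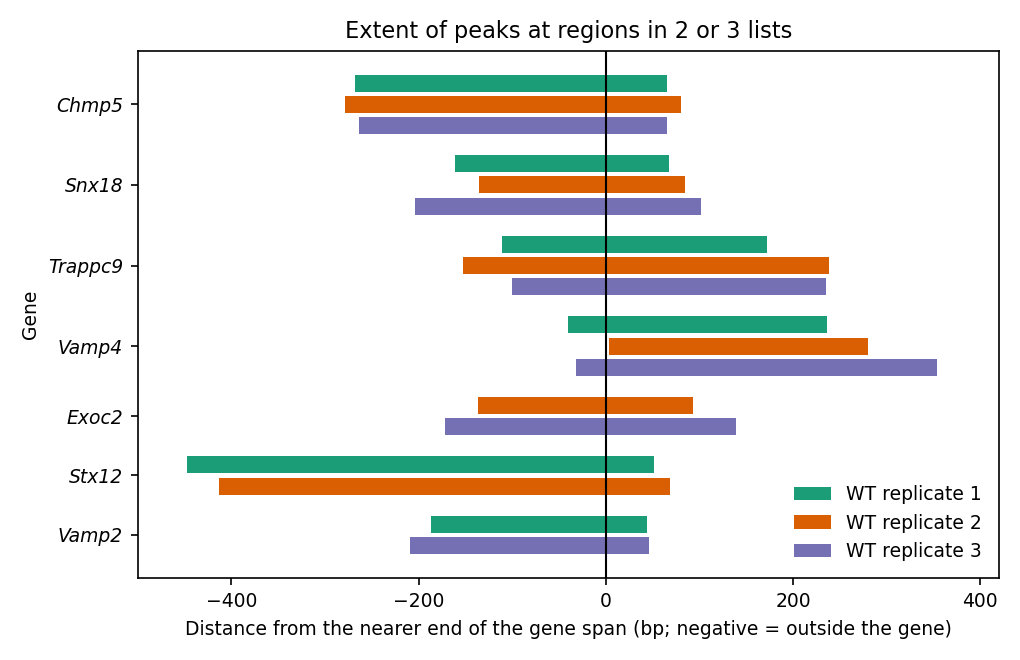
Extent of each peak at the 7 member regions in 2 or 3 lists, in bp from the nearer end of the gene span (0; negative values lie outside the gene), with 1 bar per WT list. Of the 18 bars, 17 cross the end of the gene, and that of Vamp4 in replicate 2 begins 3 bp inside it.

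Peaks were joined into a region only if they overlapped, so some closeness of position between lists follows from the rule. The matching values over all repeated regions of the series were not computed, so those below describe the members only. The bases common to every peak of a region made up 91.9% of it at Chmp5, 90.6% at Vamp2, 90.1% at Stx12, 73.7% at Exoc2, 69.5% at Trappc9, 66.4% at Snx18 and 59.2% at Vamp4. Both starts and ends of the peaks differed by at most 118 bp, the largest difference being at Vamp4.

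Promoter windows were in the table for 16 of the 23 genes with a peak, and for 10 of these a window overlapped the gene's own region. Those were Chmp5, Snx18, Vamp4, Exoc2, Stx12, Ap2a1, Chmp3, Sec24d, Snx1 and Stx16, with 11 windows. Counting regions whatever gene they are named for, 14 of the 210 member windows were overlapped by a region of any list (6.67%, interval 3.69 to 10.9), against 5.41% of all protein-coding promoter windows. For regions in 2 or more lists it was 7 of 210 (3.33%, interval 1.35 to 6.75), against 2.74%.

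Letters of 4 motifs were searched on both strands of these windows. GGGAA was in 8 of 11 windows (72.7%), in 68.6% of the 1151 windows overlapped by any region and in 63.0% of all 21262 windows. TGACTCA, the site of AP-1 dimers that the series title names, was in 0 of 11, in 2.95% of overlapped windows and in 4.66% of all. CCGGAA was in 4 of 11 (36.4%), in 37.8% of overlapped windows and in 18.7% of all, and GGGCGG, the GC box, in 9 of 11 (81.8%), 81.8% and 46.2%. The median GC content was 64.3% in the 11 windows, 66.0% in overlapped windows and 56.3% in all. A single GC box match shared bases with a GGGAA match, and no other pair with GGGAA did. The members' windows thus lay near other overlapped windows on each count, and a match is not a measured binding site.

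**Figure D4:**
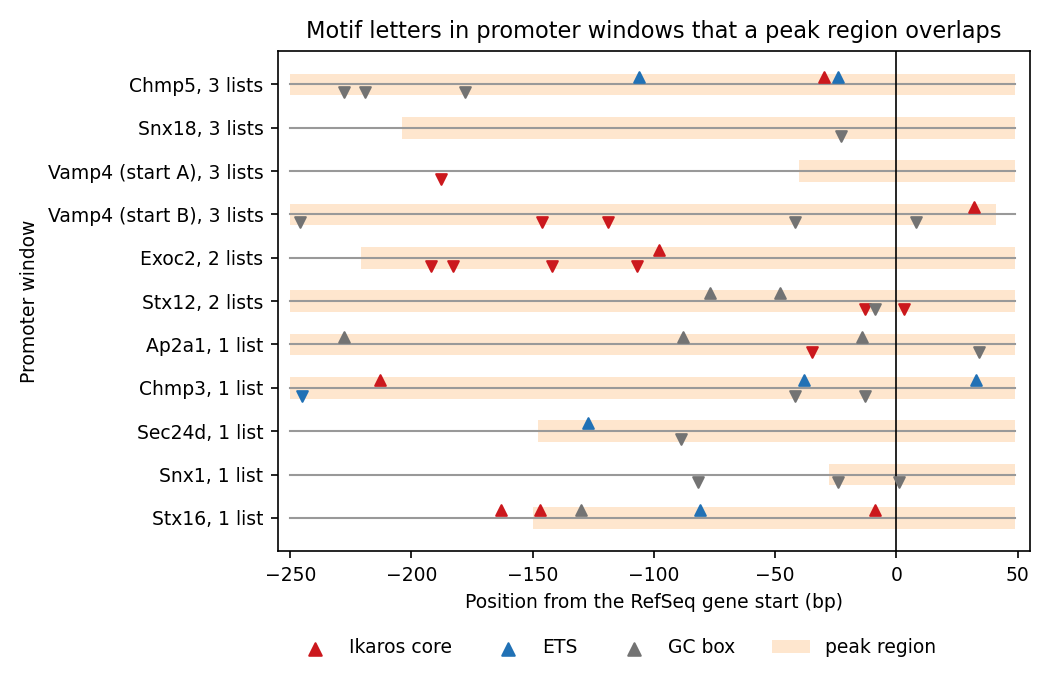
Matches of GGGAA (Ikaros core), CCGGAA (ETS) and GGGCGG (GC box) in the 11 promoter windows that a member region overlaps, by position from the RefSeq gene start in bp. Triangles pointing up are matches on the gene's strand and those pointing down on the other strand, and shading marks the peak region; Exoc2 holds 5 core matches and Snx18 0.

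Genes of neighbouring steps were taken from 7 other lists. The list for release of cytotoxic granules also holds genes that the name rule takes, such as Stx11 and Vamp4. Of its 19 genes, 2 had a peak (10.5%, against 9.36% of all protein-coding genes), namely Vamp4, already counted as a member, and Rab11a. Rab11a, a recycling endosome GTPase, had a peak in replicate 2 only, with a fold enrichment of 5.29 at percentile 66.8. Stx11 and Unc13d, which act in granule fusion, had none in any list. Other SNAREs and their regulators had 3 of 19 with a peak, other ESCRT genes 1 of 10, partners of WASH and retromer 3 of 10 (Washc1, Washc3 and Washc4, subunits of the actin-nucleating WASH complex on endosomes), regulators of ARF, SAR1 and coats 3 of 16, and other Golgi tethers 1 of 11. In these 5 lists only Arf3, a small GTPase of coat assembly, had a region in 2 lists. None of their genes had one in all lists. The matching shares of all protein-coding genes were 4.36% for at least 2 lists and 1.99% for all lists. With such low shares, lists of 10 to 19 genes are too short to show a shortage, and the difference was not tested.

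Clathrin and its partners had 7 of 16 genes with a peak (43.8%), against 9.36% of all protein-coding genes. A region in 2 or more lists was found for 3 of the 16, against 4.36% of all genes. The 3 were Fcho2, a protein that nucleates clathrin-coated pits, Cltc, the clathrin heavy chain, and Clta, a clathrin light chain. At Fcho2 the ratio was 20.4, 42.9 and 32.4 in replicates 1, 2 and 3, with the region's midpoint 14.6 kb from the nearest protein-coding gene end. This list was written with the Fcho2 region already known. Without that gene 6 of 15 had a peak (40.0%), and 2 of 15 had a region in 2 or more lists. Cltc, at its gene end, had 4.84, 4.80 and 4.16, at percentiles of 40.3, 52.4 and 21.3.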

How the data were processed

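Ikaros ChIP-seq of mouse NK cells was deposited as 1 peak list per WT library. Per the submitters' processing notes, Subread, Picard, SAMtools, MACS2, edgeR 3.20.0 and build mm10 were used, with no roles given; the control library and q threshold are not given in the sources used here. Columns for each peak hold, per the file headers, fold enrichment (a linear ratio), −log10 values of p and q, a score, and a distance in bp to 1 or more genes named by the authors. These values were used within a list only.

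Protein-coding names were taken if they begin with Vps, Snx, Vamp, Stx, Trappc, Exoc, Tmed, Chmp or Golg, with Sec or Cog and a digit, with Cop and a letter, or with Ap, a digit from 1 to 4 and a letter; Snx29 was left out. Peaks sharing at least 1 base were merged. Gene spans and promoters came from RefSeq GRCm38.p6. A gene end was called near when within 1 kb of a region's midpoint. Lists and members were chosen with earlier results of these data known, so no test was made. Main counts are set against those over all genes or regions. Members with a region in 2 or more lists are given in full, as are the 3 highest percentiles of single-list members; the others are given by name and range. ETS and GC box letters were added after seeing the promoters. Clopper-Pearson intervals are at 95%. Merging was tested on simulated data. Software was pandas 2.3.3, NumPy 2.4.6, matplotlib 3.10.9 and SciPy 1.17.1 on Python 3.11.15.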

Additional observations from a re-analysis of the deposited data

How the results depend on the processing

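No paired analysis was possible because only WT lists entered, so no pair of groups was compared. Raising the minimum −log10 q to 5 left 8 member regions, and fewer peaks enter by construction. Of these 8, 6 were in 2 or more lists (75.0%), against 48.7% of all regions so kept. All lists held 4 of the 8, against 21.7% of all regions so kept. With 50% of the shorter peak shared, counts stayed at 4 and 7. Leaving out Cops genes and Coprs could not change them, because none of those genes had a peak. By RefSeq assignment they were 6 and 9 of 28 regions. Without 1 replicate, the remaining pair shared 5 member regions each time, 20.8% to 41.7% of those left. Shares over all regions for the same pairs were not computed, so these values are not set against the series. The mean of median percentiles without 1 replicate ran from 56.8 to 72.7, an alternative chosen after seeing the data. That mean was 63.5 when peaks were ranked by −log10 p and 50.9 with the minimum −log10 q of 5. The share at gene ends was 66.7% with regions of any list. It was 100% under every other alternative run, but that was fixed in advance. Those alternatives were a limit of 5 kb or parts of the same 7 regions, which all lay within 0.189 kb of a gene end. Depth is unknown.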

Other observations

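Members of the vesicle gene families were also found at regions that the authors named for other genes. The RefSeq assignment, by overlap with the gene span and otherwise the nearest gene within 50 kb, gave 28 member regions at 27 genes, of which 23 regions were shared with the authors' gene column, 5 were added and that of Sec11a was dropped. Ap3m2, a subunit of the AP-3 adaptor that sorts cargo to lysosome-related organelles, had a region in all lists on chr8:22807241-22808229, with its midpoint 0.443 kb from the gene's end. Its fold enrichments were 6.07, 5.39 and 7.48 in replicates 1, 2 and 3, at percentiles of 78.2, 69.4 and 89.9. The authors' column names 1700041G16Rik there.

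Snx25, a sorting nexin, had a region in all lists on chr8:46152344-46152679, with its midpoint 0.0705 kb from the gene's end. Fold enrichments were 6.77, 6.86 and 6.08 in replicates 1, 2 and 3, at percentiles of 86.3, 88.2 and 75.8, and the authors' column names Cfap97 and Gm15634. The other added genes were Copg2, a COPI coat subunit, Golga7, which acts in palmitoylation of Ras proteins, and Stxbp5, a syntaxin-binding protein, each with a peak in 1 list, at percentiles of 29.9, 20.1 and 62.6. Regions named by the authors for 2 or more protein-coding genes made up 5 of the 24 member regions, against 8.22% of all regions named for a protein-coding gene; a region with more names has more chances to be taken by a name rule.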
